A study of Mus musculus with 4 samples.

Results

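Bcl2 and 4 of its relatives, Bcl2l1, Bcl2l11, Mcl1 and Bax, were examined in 2 maps of histone H3 dimethylated at lysine 36 (H3K36me2), made by chromatin immunoprecipitation and sequencing (ChIP-seq) from cultured mouse bone marrow mesenchymal stem cells (MSCs). All peaks in or within 100 kb of these 5 genes were taken, 18 of the 16060 in both lists together. They were 12 of 7699 peaks from cells given 1 µM melatonin, the pineal hormone, for 24 hours, and 6 of 8361 peaks from cells labelled untreated. Each condition had 1 ChIP library and 1 input library without antibody, of bone marrow MSCs grown in DMEM with 10% FBS. The series' design text speaks of old donors, and the sample labels used here give no age, strain or number of animals. The genes were picked with the peaks of these lists in view, so the counts at Bcl2 are a description of 2 libraries and carry no test. In a bulk culture, a mark on fewer cells and less of the mark per cell cannot be told apart.

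The Bcl2 family decides whether a cell undergoes the mitochondrial form of apoptosis. Bcl2, Bcl2l1 (Bcl-xL) and Mcl1 hold back Bax, which permeabilises the outer mitochondrial membrane, and the BH3-only protein Bcl2l11 (Bim) binds the protective members and frees or activates Bax. H3K36me2 is written by enzymes such as NSD2, the subject of the study's title, and is known as a broad mark of gene bodies and of the sequence between genes. Senescent cells of several kinds are known to lean on the protective members of the family for survival.

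None of the 8 promoter windows that RefSeq gives for the 5 genes held a peak in either library. Each window runs from 250 bases before a transcription start site to 50 after it. Over all 32851 such windows, 0.207% overlapped a melatonin peak and 0.143% an untreated peak, so a lack of promoter peaks is what nearly every gene showed. The 250 bases before the start of 3 members are printed to show promoter sequence in which neither library had a called peak. Capitals mark TGACGT in Bcl2, the core of the cyclic AMP response element, GGGCGG, the GC box, read as its reverse CCGCCC in Mcl1, and CACGTG, the E-box, in Bax. All sequences are from RefSeq on GRCm38.p6, at chr1:106714291-106714540 on the minus strand, chr3:95658471-95658720 on the plus strand and chr7:45466899-45467148 on the minus strand.
Bcl2: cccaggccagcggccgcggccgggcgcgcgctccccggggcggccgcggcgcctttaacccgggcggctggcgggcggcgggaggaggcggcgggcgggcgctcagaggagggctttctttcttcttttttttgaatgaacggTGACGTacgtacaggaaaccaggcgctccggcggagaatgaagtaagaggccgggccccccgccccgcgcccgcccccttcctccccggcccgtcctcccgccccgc
Mcl1: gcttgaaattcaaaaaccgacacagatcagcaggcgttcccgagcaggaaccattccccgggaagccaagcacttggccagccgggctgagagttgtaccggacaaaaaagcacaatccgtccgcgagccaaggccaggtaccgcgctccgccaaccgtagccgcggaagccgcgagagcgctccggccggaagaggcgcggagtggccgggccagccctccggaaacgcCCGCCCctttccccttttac
Bax: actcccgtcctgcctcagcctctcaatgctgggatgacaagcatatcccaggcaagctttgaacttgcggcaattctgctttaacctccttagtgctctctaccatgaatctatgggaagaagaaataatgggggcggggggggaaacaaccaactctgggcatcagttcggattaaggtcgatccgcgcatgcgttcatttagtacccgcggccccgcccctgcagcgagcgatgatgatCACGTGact
Bcl2 had 36 CpG dinucleotides in its 250 bases, Mcl1 26 and Bax 14, against a median of 6 over all windows. On either strand, TGACGT occurred in 6.47% of all windows, GGGCGG in 32.7% and CACGTG in 6.02%. In the 250 bases printed, GGGCGG on either strand was found 7 times in Bcl2 and 2 times in Bax, where it is not capitalised, and 1 time in Mcl1. TGACGT was found in Bcl2 alone of the 3 and CACGTG in Bax alone. The TGACGT in Bcl2 begins at base 144 of the 250 printed, counted from 1 at the 5′ end. These matches describe the letters only, and no binding of a factor was measured.

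Bcl2 carried a dense run of H3K36me2 peaks in the melatonin library and a sparse one in the untreated library. Bcl2 (chromosome 1, 106538176 to 106714290, minus strand, 176 kb, gene ID 12043) held 9 melatonin peaks (exact 95% Poisson interval 4.12 to 17.1) and 2 untreated peaks (0.24 to 7.22) in its body. The melatonin to untreated ratio of peaks was 4.5 at Bcl2 (exact 95% interval 0.931 to 42.8), where it was 0.921 over the whole lists and 0.871 on chromosome 1. The interval covers counting error only and treats peaks as independent. The libraries held 14180076.5 tags with melatonin and 13198427.5 without, and each condition had no replicate.

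Any melatonin peak in the gene body was found in 5.48% of 21887 protein-coding genes, and any untreated peak in 5.2%. At least 9 melatonin peaks were found in 25 genes, or 0.114%, and at least 2 untreated peaks in 426, or 1.95%. The 25 genes ran from 176 kb, Bcl2 itself and the shortest of them, to 1998 kb, with a median of 636 kb. Per length, Bcl2 held 5.11 melatonin peaks per 100 kb (Poisson interval 2.34 to 9.7) and 1.14 untreated peaks per 100 kb (0.138 to 4.1). These intervals treat peaks as independent, though 4 of the 9 melatonin peaks lay in 13.3 kb. How the peak finder joins or splits neighbouring calls was not varied. Chromosome 1 as a whole held 0.315 melatonin and 0.362 untreated peaks per 100 kb. Among the 2429 genes of at least 100 kb, only Tg, the thyroglobulin gene, was denser in melatonin peaks than Bcl2, while 195 were denser in untreated peaks. These ranks describe a gene chosen with its peaks known and carry no test.

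**Figure D1:**
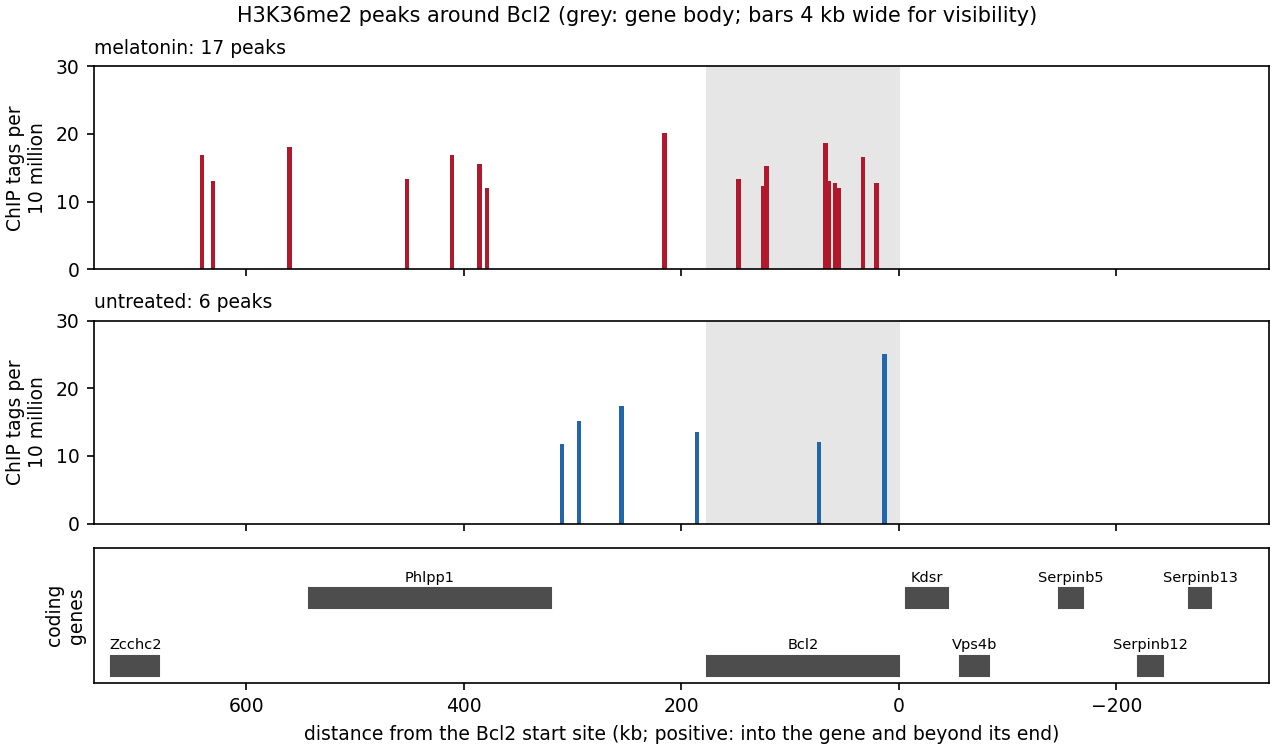
Peaks at chromosome 1, 106000001 to 107000000, as ChIP tags per 10000000 tags of the library (vertical axis) against distance from the Bcl2 start site in kb (horizontal axis, with the gene reading from right to left), with melatonin above, untreated below and the protein-coding genes underneath. In the grey Bcl2 body the melatonin library has 9 peaks and the untreated library 2, and neither has a peak to the right of the start site.

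From the start site inwards, the first Bcl2 peak belonged to the untreated library. It lay at 106700076 to 106701747, 13.4 kb from the start site at its midpoint. With 25 normalized tags, meaning ChIP tags per 10000000 tags of the library, it had the most of the 18 peaks. At 1671 bp it was also the widest of them, and tags are a total over the peak. It rested on 33 tags (Poisson interval 22.7 to 46.3) against 7 scaled input tags, a fold over input of 4.7. By tags it stood at the 97.8th percentile of the untreated list, and by fold at the 41.2nd. The nearest melatonin peak, at 106693284 to 106694284, lay 5.79 kb from it and further into the gene, with 12.7 normalized tags, 3 input tags and a fold of 5.22. Both libraries thus had a peak in the start-proximal part of the gene, at places that did not overlap.

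The next melatonin peak, at 106680895 to 106682224, had 16.6 normalized tags and a fold of 5.11. Then 4 melatonin peaks stood together in 13.3 kb, from 106645905 to 106659181, between 55.6 and 67.6 kb from the start site at their midpoints. The widest of them, at 106645905 to 106647474 and 1569 bp long, had 18.7 normalized tags. On the other scale, that of the peak finder's fold, it had 23 ChIP tags over 3 input tags. Its fold was 7.68 and its Poisson p over input 2.07e-13 in the authors' list, the lowest p of any Bcl2 peak. The other three had folds of 4.02, 7.83 and 4.93, and the 4.02 was just above the required 4. The second untreated peak, at 106640315 to 106641315, lay 4.59 kb beyond this group, with 12.1 normalized tags, 3.9 input tags and a fold of 4.1. It was among the weakest of its list, at the 6.77th percentile by tags.

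Toward the far end of the gene the melatonin library alone had peaks. A pair lay 1.59 kb apart at 106589266 to 106590266 and 106591855 to 106593191, with 12.3 and 15.2 normalized tags and folds of 5.07 and 5.34. The last, at 106566221 to 106567221, had 13.4 normalized tags and a fold of 5.51, and lay 147.6 kb from the start site. The first 28 kb of the body counted from its 3′ end held no peak in either library. The 9 peaks spanned 128 kb, with gaps between neighbours of 1.55 to 52.7 kb and a median of 7.96 kb.

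The 9 melatonin Bcl2 peaks had a median strength near that of their list but were spread widely over it. By tags they stood from the 7.51th to the 91st percentile of their list, and the 2 untreated peaks at the 6.77th and 97.8th of theirs. The 9 melatonin peaks had 12 to 18.7 normalized tags, with a median of 13, where the median of the whole melatonin list was 13.4. Their folds ran from 4.02 to 7.83 with a median of 5.22, against 5.11 for the list. Input tags within them came to a median of 3 per kb, equal to that of the list. The 2 untreated peaks had folds of 4.1 and 4.7, under the list's median of 4.87. Per kb of called sequence, melatonin peaks held 12.4 normalized tags over 10234 bp and untreated peaks 13.9 over 2671 bp, so the melatonin library had more called sequence in Bcl2 and slightly fewer tags per called kb. The smallest possible width, 1000 bp, was found at 6 of the 9 melatonin peaks and at 1 untreated peak.

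**Figure D2:**
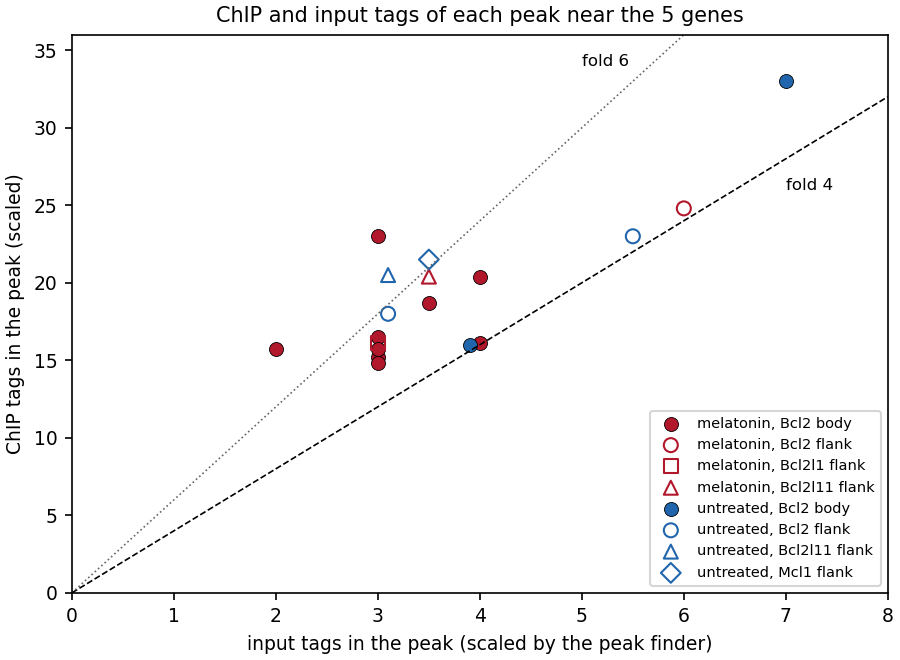
ChIP tags (vertical axis) against input tags (horizontal axis) of the 18 peaks, with the deeper library of each pair scaled by the peak finder. Melatonin is in red and untreated in blue, with filled points in the Bcl2 body and open points in flanks. Lines mark a fold of 4 (dashed) and 6 (dotted). The 9 filled red points lie at 2 to 4 input tags, and 2 of them lie above the line at 6. Some points overlap.

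Missing peaks do not show missing mark at Bcl2. The peak finder asked for a tag threshold of 18 in a 1000 bp window with melatonin and 17 without, which the findPeaks score of every peak met, and for a fold of 4 and a Poisson p of 1e-04 over input, with 7.09 and 6.6 tags expected there if the tags were spread evenly. The deposited tag counts of the final regions can lie below that threshold, and single Bcl2 body peaks rested on 17 to 26.5 of these tags with melatonin and on 16 and 33 without. Intervals such as 9.9 to 27.2 for the lowest melatonin peak reach well below it. When each list was reduced to its 3849 most significant peaks by the authors' p, 5 melatonin and 1 untreated peak remained in the Bcl2 body. With a fold of at least 6 there were 2 and 0. A findPeaks score of at least 18, asked of both lists and chosen after seeing the data, left 9 and 1. Every melatonin peak had a score of at least 18, so this setting could remove untreated peaks only.

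No Bcl2 peak was shared, and few peaks of either list were. None of the 12 melatonin peaks of the 5 genes overlapped an untreated peak, beside 6.12% of all melatonin peaks, and none of the 6 untreated peaks overlapped a melatonin peak, beside 5.6% of all untreated peaks. Within the Bcl2 body the nearest peak of the untreated library was 4.59 to 50 kb away, with a median of 16.9 kb. With a distance of up to 5 kb counted as shared, 1 melatonin peak had a partner.

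The flanks of Bcl2 did not follow its body. Beyond the 3′ end, the melatonin library had 1 peak within 100 kb, at 106498318 to 106499595, with 20.1 normalized tags, 6 input tags and a fold of 4.13. The untreated library had 2, at 106528349 to 106529349 (13.6 normalized tags, fold 5.77), inside the long noncoding RNA gene Gm41928, and at 106458539 to 106459811 (17.4 normalized tags, fold 4.21). With flanks, Bcl2 therefore had 10 melatonin and 4 untreated peaks. The outermost untreated peak counted lay 78.4 kb from the gene, and the first one left out lay 117 kb away with a fold of 4.27. The first melatonin peak left out lay 202 kb away with a fold of 4.22. Within 100 kb before the start site neither library had a peak.

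Bcl2l1, the other classical protector beside Bcl2, had no peak in its body in either library. Its 1 melatonin peak lay 75.2 kb before the gene (chromosome 2, 152758732 to 152833803), at 152909029 to 152910029, in no annotated gene, with 13 normalized tags, 3 input tags and a fold of 5.36. The nearest untreated peak lay 165 kb from the gene, outside the 100 kb taken.

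Mcl1, the short-lived protector, also had no peak in its body, and had 1 peak within 100 kb, in the untreated library. Its 1 untreated peak lay 77.3 kb before the gene (chromosome 3, 95656944 to 95663179), at 95578686 to 95579686 in the meiotic gene Hormad1, with 16.3 normalized tags, 3.5 input tags and a fold of 6.12. The nearest melatonin peak was 857 kb away.

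Bcl2l11, the BH3-only member, was the only one of the 4 relatives with a peak in both libraries. Both lay beyond its 3′ end (gene on chromosome 2, 128126038 to 128162547) and overlapped the long noncoding RNA gene Gm14009. The melatonin peak, at 128204912 to 128206167, had 16.6 normalized tags, 3.5 input tags and a fold of 5.84. The untreated peak, at 128193546 to 128194546, had 15.5 normalized tags, 3.1 input tags and a fold of 6.57. They were 42.4 and 31 kb from the gene and 10.4 kb from each other.

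Bax, the pore former (chromosome 7, 45461695 to 45466903), had no peak within 100 kb. The nearest lay 3732 kb away with melatonin and 1601 kb away without. Outside Bcl2, the 4 relatives thus had 2 melatonin and 2 untreated flanking peaks and none in a gene body. A peak in or within 100 kb was found at 29.5% of protein-coding genes with melatonin and 26.3% without. By that measure 3 of the 5 members had one in each library, and since the members were picked from these lists nothing is read from that share.

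The 1 Mb window around Bcl2 held more melatonin peaks, most of them in Bcl2 itself. In the 1 Mb window of chromosome 1 from 106000001 to 107000000 there were 17 melatonin and 6 untreated peaks, a ratio of 2.83 (exact 95% interval 1.07 to 8.78). This interval covers counting error only and treats peaks as independent. The window was chosen with these peaks known, so its ratio and its place among other windows are a description and no test. Of the 17 and 6 peaks, 9 and 2 were the peaks of the Bcl2 body, 8 and 4 lay beyond its 3′ end, and 0 and 0 lay on the side of its start site. Within 100 kb of the gene the order outside the body was the other way, with 1 and 2. A count of 17 melatonin peaks or more was reached by 2.13% of 2634 windows of 1 Mb. A difference of 11 was reached by this window alone, or 0.038%, while 22 windows, or 0.835%, differed by as much in the other direction. The window on its left held 4 melatonin and 5 untreated peaks and the one on its right 3 and 7, so the untreated library had more in both. The median over all windows was 1 peak in each library. With a fold of at least 6 the Bcl2 window held 3 and 0. With a findPeaks score of at least 18 asked of both lists, which could remove untreated peaks only, it held 17 and 3.

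**Figure D3:**
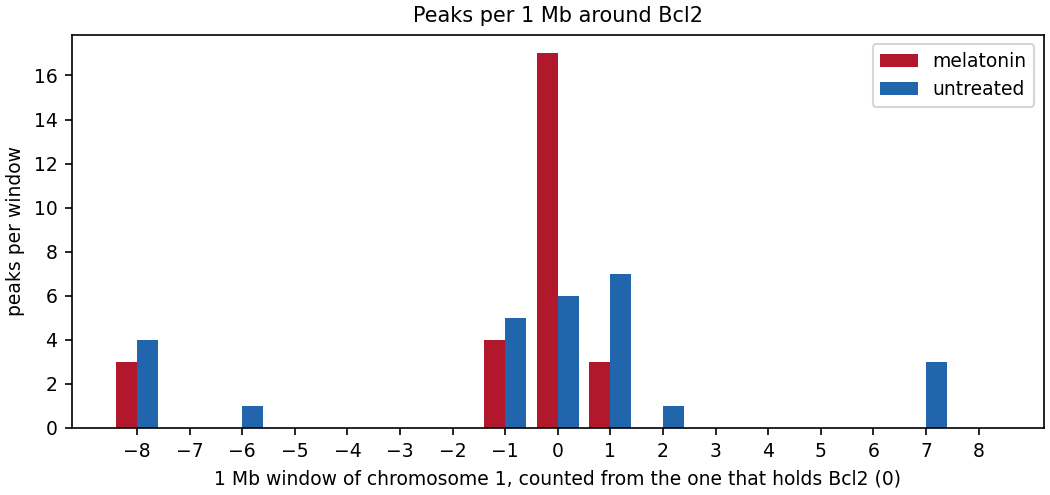
Peaks per 1 Mb window of chromosome 1 (vertical axis) for the window that holds Bcl2 (0) and the 8 windows on either side (horizontal axis), with melatonin in red and untreated in blue. The middle window has 17 melatonin and 6 untreated peaks, and most of the others have none.

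Phlpp1, next to Bcl2 and the gene of a phosphatase that switches off the survival kinase Akt, also held more melatonin peaks. Its body (106171869 to 106394245) held 4 melatonin peaks and 0 untreated peaks. The strongest fold of the window lay there, at 106328224 to 106329224, with 15.5 normalized tags, 1.5 input tags and a fold of 12.8. This fold rested on few input tags. The other folds in Phlpp1 were 5.51, 4.64 and 4.22. The nearest untreated peak lay 9.58 kb outside the gene, with 11.7 normalized tags and a fold of 4.41.

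The remaining genes of the window divided by side. Beyond Phlpp1, the pseudogene Gm26509 held 2 melatonin peaks with folds of 5.96 and 5.36 and the noncoding gene Gm20753 held 1 with a fold of 4.43, and neither held an untreated peak. Zcchc2 held none. On the other side, past the Bcl2 start site, Kdsr, which encodes a reductase of sphingolipid synthesis, Vps4b, an ATPase of membrane scission, and the protease inhibitor genes Serpinb5, Serpinb12 and Serpinb13 held no peak in either library. All 17 melatonin peaks lay between 106073291 and 106694284, and all 6 untreated peaks between 106403824 and 106701747. Inside the Bcl2 body, the noncoding gene Gm37053 and the microRNA gene Mir3473f held none, their nearest melatonin peaks being 10.6 and 19.6 kb away and their nearest untreated peaks 25.4 and 17.1 kb away.

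Few genes had a surplus like that of Bcl2. Bcl2 was picked with these counts in view, so its place among genes is a description and no test. A difference of at least 7 body peaks in favour of melatonin was found in 4 genes, or 0.0183% of those tested: Atrnl1 (9 melatonin and 1 untreated), Esr1 (13 and 5), Tg (10 and 2) and Bcl2 (9 and 2). A difference of at least 7 in favour of untreated cells was found in 12 genes, or 0.0548%. The genes most like Bcl2 were ranked by the summed absolute difference from its 2 counts and then by length. They were Tg (180 kb, 10 melatonin and 2 untreated), Tnr, the tenascin R gene (408 kb, 8 and 2), Atrnl1 (522 kb, 9 and 1), Lama2, a laminin chain gene (636 kb, 9 and 4), and Chchd6 (213 kb, 7 and 3). This likeness rests on 2 libraries and on counts alone.

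**Figure D4:**
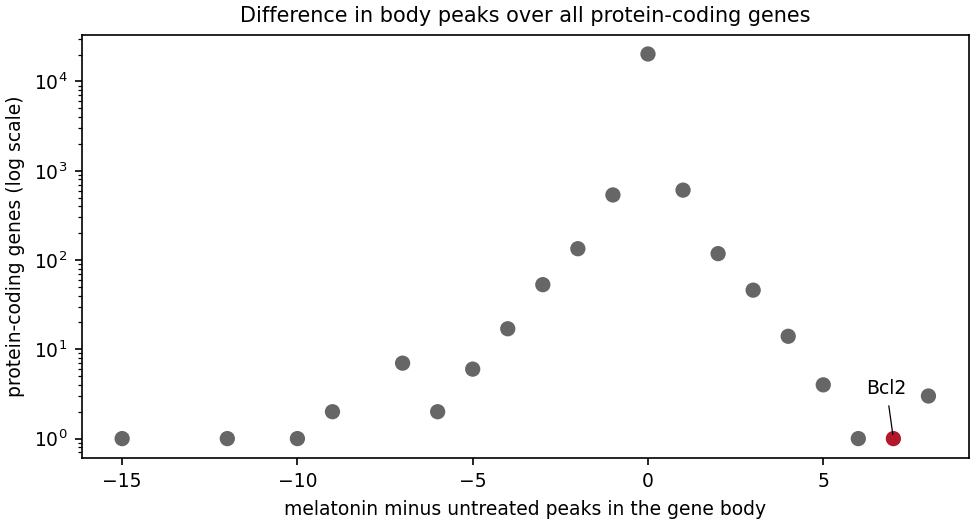
Number of protein-coding genes (vertical log axis) for each difference between melatonin and untreated body peaks (horizontal axis), with the point of Bcl2 in red. Bcl2 is the 1 gene at a difference of 7, 3 genes lie at 8, and the tail on the untreated side reaches -15.

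Across the wider family, the order of the libraries depended on the distance taken, on small counts of genes. Of 25 family genes, 6 had a melatonin peak in or within 100 kb and 9 an untreated peak, or 24% and 36%, beside the 29.5% and 26.3% of all protein-coding genes. Both the family and all genes had a median of 0 peaks per gene in each library. Such a peak in the body or within 2 kb was found at 5.94% of all protein-coding genes with melatonin and 5.71% without. In gene bodies, 3 family genes held a melatonin peak, Bcl2, Bik and Bcl2l14, and 1 an untreated peak, Bcl2 itself, or 2 and 0 without the 5 members. Without the 5 members, 3 of 20 relatives had a melatonin peak within 100 kb and 6 an untreated peak. None of these 20 had both, beside 15.9% of all protein-coding genes.

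Among the 8 protective genes, 2 had a melatonin peak in or within 100 kb and 4 an untreated peak. These were 25% and 50%, beside 29.5% and 26.3% of all protein-coding genes. Besides the members, Bcl2l2 (Bcl-w) had 1 untreated peak 52.8 kb away (fold 4.04), and Bcl2l10 had 3 untreated peaks, the nearest at 16.6 kb (best fold 4.84). The 3 Bcl2a1 genes tested had none, and these near-identical copies may share reads. Of the 3 pore formers, Bok had 1 untreated peak at 2.13 kb (fold 4.19), and Bax and Bak1 had none.

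Among the 8 BH3-only genes, 3 had a melatonin peak in or within 100 kb and 2 an untreated peak. These were 37.5% and 25%, near the 29.5% and 26.3% of all protein-coding genes for so short a list. Bik (chromosome 15, 83526790 to 83544635) had 2 melatonin peaks in its body, with a best fold of 10.7, and no untreated peak within 100 kb. Bmf had 1 melatonin peak at 4.29 kb (fold 5.71) and Hrk 2 untreated peaks, the nearest at 91 kb (best fold 5.13). Bid, Bad, Bbc3 (Puma) and Pmaip1 (Noxa) had none. Of the 6 other relatives, Bcl2l14 had 1 melatonin peak in its body (fold 5.22), while Bcl2l13 and Bcl2l15 had untreated peaks at 84.7 and 20.5 kb (best folds 6.04 and 6.23).

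**Figure D5:**
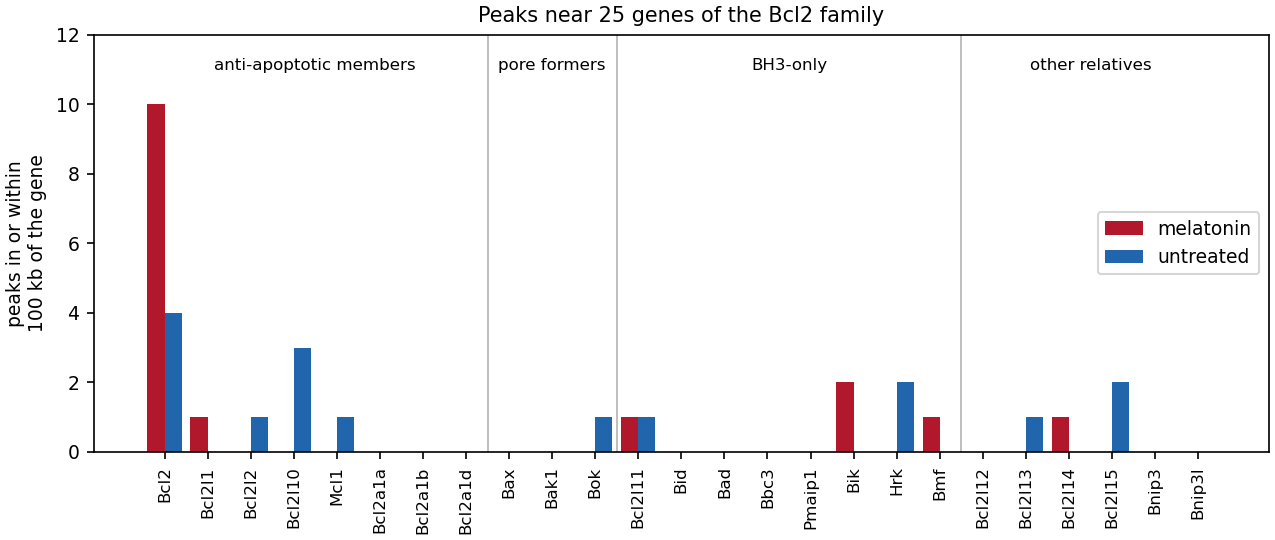
Peaks in or within 100 kb of each of 25 Bcl2 family genes (vertical axis), grouped by role along the horizontal axis, with melatonin in red and untreated in blue. Bcl2 has 10 and 4, and no other gene has more than 3 in a library.

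Downstream of the family, 10 genes of the caspase arm list were counted. They encode proteins released from mitochondria, mitochondrial channels, and a caspase with its regulators. None had a peak in its body, where 5.48% of all protein-coding genes had one with melatonin and 5.2% without, and 3 had a melatonin peak within 100 kb and 2 an untreated peak, or 30% and 20% beside 29.5% and 26.3% of all genes. Cycs, the cytochrome c gene, had 3 melatonin peaks (best fold 8.7) and 1 untreated peak (4.56), and the protease gene Htra2 had 1 (4.47) and 2 (6.04). Vdac2, a mitochondrial channel gene, had 3 melatonin peaks (best fold 6.61) and no untreated peak. Apaf1, Casp9, Diablo, Xiap, Vdac1, Endog and Aifm1 had none.

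Of 16 regulators of the family, 7 had a melatonin peak within 100 kb and 9 an untreated peak, or 43.8% and 56.2% beside 29.5% and 26.3% of all genes. Both kinds were found at 6, beside 15.9% of all genes. The list holds long genes, such as Itpr2 (394 kb), Itpr1 (338 kb) and Phlpp1 (222 kb), and these shares were not adjusted for length. Among genes of at least 100 kb, 30.3% had a melatonin peak and 29.6% an untreated peak in the body, beside 5.48% and 5.2% of all genes. Nothing about regulators is therefore read from the shares. Itpr1 and Itpr2, calcium release channels of the endoplasmic reticulum on which Bcl2 acts, had 3 and 2 melatonin peaks (best folds 9.57 and 6.09) and 4 and 2 untreated peaks (5.29 and 7.21). Itpr1 held a body peak in both libraries, and Itpr2 in the melatonin library. Creb1, the cyclic AMP response factor, had 2 melatonin peaks (best fold 5.43) and 3 untreated peaks (6.12). Foxo3, which activates Bcl2l11, had 2 (5.22) and 1 (5.45), and Nfkb1 had 2 (5.22) and 2 (4.43). Phlpp1, described above as a neighbour, had 7 melatonin and 3 untreated peaks by this measure, and 1 of the untreated peaks was also counted at Bcl2. Usp9x had 1 melatonin peak (fold 4.46) and no untreated peak. Huwe1 (fold 4.84), Itpr3 (7.37) and Akt1 (6.09) had 1 untreated peak each and no melatonin peak. Trp53, Rela, Stat3, Fbxw7, Becn1 and Pik3c3 had none.

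The labelled cell type could not be checked with these peaks, since H3K36me2 peaks do not measure expression. For reference, 6 of 10 MSC marker genes had a melatonin peak within 100 kb and 5 an untreated peak, and 3 of 8 markers of other marrow cells had one in each library, beside 29.5% and 26.3% of all protein-coding genes.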

How the data were processed

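H3K36me2 was mapped in 1 ChIP library per condition, each with its own input. Peaks were called with HOMER findPeaks in histone style on 1 library at a time without pooling, per the file headers. Per the submitters' processing notes, BWA 0.7.13, Picard 1.126, MACS2 2.1.0 and the build mm39 were used. The headers name HOMER instead of MACS2, and the HOMER version is not given in the sources used here. Every library's treatment protocol text mentions melatonin, so groups were taken from the treatment label. The peak lists are named after the input libraries, but the ChIP library that each header names has the title of the sample the list was deposited for. Peaks reached 159805034 on chromosome 3 and 145328623 on chromosome 7, past the ends of both in mm39, so coordinates were read as GRCm38. The RefSeq gene table gives no exons, so exons and introns were not separated.

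The deposited normalized tag count is a signal, the ChIP tags of a region per 10000000 tags of its library, per the file headers. ChIP and input tags are deposited as a signal too, with the deeper library scaled to the shallower, per the file headers. The deposited fold is a ratio of scaled ChIP to input tags, the deposited p-value is a Poisson p without adjustment, and the deposited findPeaks score was at least the tag threshold in every peak. All are the authors' values and serve to describe or filter peaks of 1 list at a time. Unscaled tags were recovered from the normalized tag count and the library total to the nearest 0.5.

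Peaks were assigned by an overlap of 1 bp or more with Python 3.11.15, pandas 2.3.3 and scipy 1.17.1, and the counting was tested on simulated data. Poisson and binomial intervals are exact, at 95%, and cover counting error only, since no molecular identifiers were used and reads are not independent molecules. With 1 library per condition no p-value between conditions was computed. The members, gene lists and naming rule (the 5 members, coding genes of the window, listed genes with a peak, and the 5 genes most like Bcl2) were chosen with earlier results of these data known. Atrnl1 and Esr1 among the genes with a large difference, the noncoding genes, the densest gene Tg and the listed genes without a peak are named beside the rule after their values were seen. For 2 genes of the caspase list, results are not reported here, and they are left out of its counts. Input libraries outside peaks were not analysed here.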

Additional observations from a re-analysis of the deposited data

How the results depend on the processing

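Of 63 alternative values, 36 stayed within 1.5 times the value reported and 27 moved further. The Bcl2 body held more melatonin than untreated peaks under all 8 alternatives, as did the 1 Mb window under all 4. Both places were picked with these counts in view and the alternatives reuse the same peaks, so this order is no independent support. A p over input of at most 1e-05 and assignment by midpoint moved no count by more than 1.5 times.

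With a fold of at least 6, the counts were 2 melatonin and 0 untreated peaks in the Bcl2 body, 2 and 2 near the 5 genes, 3 and 0 in the window, 2 and 4 family genes, and 5 and 5 caspase arm and regulator genes. With each list reduced to its 3849 most significant peaks they were 5 and 1 in the Bcl2 body, 7 melatonin peaks near the 5 genes (untreated within 1.5 times), 11 and 3 in the window, 5 untreated family genes (melatonin within 1.5 times), and 7 untreated caspase arm and regulator genes (melatonin within 1.5 times). A findPeaks score of at least 18 in both lists, chosen after seeing the data, left 1 untreated peak in the Bcl2 body and 3 in the window. It could remove no melatonin peak, since all of them had such a score. Shares of all protein-coding genes under these filters are not given, so nothing is read from the filtered gene counts.

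With 100 kb on both sides, the untreated count at Bcl2 became 4. Near the 5 genes, the untreated count was 2 in the bodies alone and 3 with 10 kb flanks. With 2 kb flanks, 3 of the 25 family genes had a melatonin peak and 1 an untreated peak. Of the 10 caspase arm and 16 regulator genes together, 3 and 2 did. Beside these stand 5.94% and 5.71% of all protein-coding genes at that distance. Both orders turned round, on counts too small to read a reversal from. When peaks up to 5 kb apart counted as shared, the overlap of 0 became 1. Stricter lists hold fewer peaks by construction.

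Counts of 2 to 9 peaks carry wide counting error, and there was no second library of a condition to leave out. No paired analysis was possible because each condition had 1 library and no test was run.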
